A study of Homo sapiens with 4 samples.

Results

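The genes described here encode the proteins that mark, license and copy the origins of DNA replication. They were chosen by name as a set of 45 genes, from the origin recognition complex to the enzymes that supply deoxynucleotides, out of 78932 gene rows. All 45 were found in the table by their Ensembl identifiers, and all 45 passed the filter on low counts, as did 18680 genes in all. The RNA came from RPMI 8226, a line of cultured human myeloma cells, and was sequenced 72 h after the cells received antisense oligonucleotides with locked nucleic acid bases (LNA), short strands that lower the RNA they pair with. The series has 2 libraries of cells given an LNA against the long noncoding RNA LINC01432 at 50 nM (labelled ASO3) and 2 libraries of cells given a control LNA (labelled ASO1), whose dose the labels do not state separately. A single oligonucleotide per group was used, so an effect of the target and an effect of the oligonucleotide itself cannot be told apart. Whether the libraries are separate cultures is not labelled, so each p-value rests on library-to-library spread that may be technical.

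Replication is prepared in the G1 phase of the cell cycle, when the origin recognition complex (ORC), with CDC6 and CDT1, loads the ring-shaped MCM2-7 helicase onto DNA. Geminin (GMNN) binds CDT1 and prevents a second loading. In S phase CDC45 and the GINS complex turn the loaded ring into an active helicase, and primase with polymerase alpha, then polymerases delta and epsilon on the PCNA clamp, copy the strands. Many of these genes are transcribed under the control of E2F factors and rise together in dividing cells, and myeloma cell lines divide continuously.

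The libraries held 20873393 and 26185342 gene counts with LINC01432 LNA, and 29161298 and 24493148 with control LNA. LINC01432 itself was measured at 8.98 and 9.88 CPM (each gene's count scaled to a common library size after TMM) with LINC01432 LNA, against 20.5 and 17.9 CPM with control LNA, a log2 fold change of -1.02 (edgeR adjusted p = 0.000228). Of 12 plasma cell and myeloma markers, 10 were above 10 CPM in each library, while CD27 and FCRL5 were below. TNFRSF17, XBP1 and GPRC5D fell and CD38 rose among them. Summed levels of 8 T and NK cell markers were 1.91 and 2.65 CPM with LINC01432 LNA, against 1.37 and 1.79 CPM with control LNA, and those of 8 myeloid markers 5.95 and 7.87 CPM, against at most 5.16 CPM in either control. Fibroblast and endothelial markers, 8 in number, summed to 6.28 and 7.75 CPM, against 4.56 and 4.76 CPM, and 1 of them, COL1A1, rose (3.44 and 4.19 CPM, against 1.82 and 2.44 CPM, edgeR adjusted p = 0.0272). The 6 epithelial markers summed to 109 and 108 CPM, against 127 and 122 CPM, mostly EPCAM and KRT18. CD3G, LYZ and COL1A2 were near 0, and LYZ, S100A8 and KRT19 were at 0 in all 4 libraries. The part of these differences in the results below was not tested. In bulk RNA, fewer cells in S phase and less RNA per cell cannot be told apart. Of 6 proliferation markers (MKI67, CCNB1, AURKA, PLK1, BUB1 and CDC20), 0 passed in edgeR, DESeq2 or limma-voom. In edgeR 2 had an unadjusted p under 0.05, and they went opposite ways: MKI67 (log2 fold change -0.23) and CDC20 (0.25). The share of all tested genes at that unadjusted threshold was not computed, so such counts, here and below, have no background. Of the 6, 4 had a positive log2 fold change and 2 a negative one.

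The question was whether the replication genes differed between the groups. Most did not pass the test, and the 7 that did went both ways: ORC6, CDT1 and POLD1 were higher with LINC01432 LNA, and ORC3, GINS1, POLA1 and PRIM2 were lower. A gene was called changed at a Benjamini-Hochberg adjusted p under 0.05 in edgeR's quasi-likelihood test across all genes. Thus 3 of 45 genes (6.67%) rose and 4 of 45 (8.89%) fell, where 7.5% of all tested genes rose and 4.37% fell. In either direction 15.6% of the set was called, against 11.9% of all tested genes. The median log2 fold change of the set was -0.08, against 0.01 over all tested genes. It was a shallow lean: 33 of 45 genes (73.3%) had a negative fold change, against 48.1% of all tested genes. Over the alternative fits 32 to 37 of the 45 were negative, but the share of all tested genes in those fits was not computed. The zero point differs between fits. With the GC offset, where 37 were negative, the median over all tested genes was -0.03. Both LINC01432 LNA libraries lay below both controls for 25 of 45 genes (55.6%, against 25.9% of all tested genes) and above both for 6 (13.3%, against 28.2%). The groups overlapped for the other 14 (31.1%), and over all tested genes 54.1% had groups that did not overlap. No test was run on the set as a whole. Leaving out a library moved the counts strongly, in the set and over all tested genes alike. Both counts fell without either control library and rose without either LINC01432 LNA library. The log2 fold change then ran from -0.70 to -0.65 for ORC3 and from 0.58 to 0.71 for CDT1. In each of these fits the spread comes from the remaining pair.

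**Figure D1:**
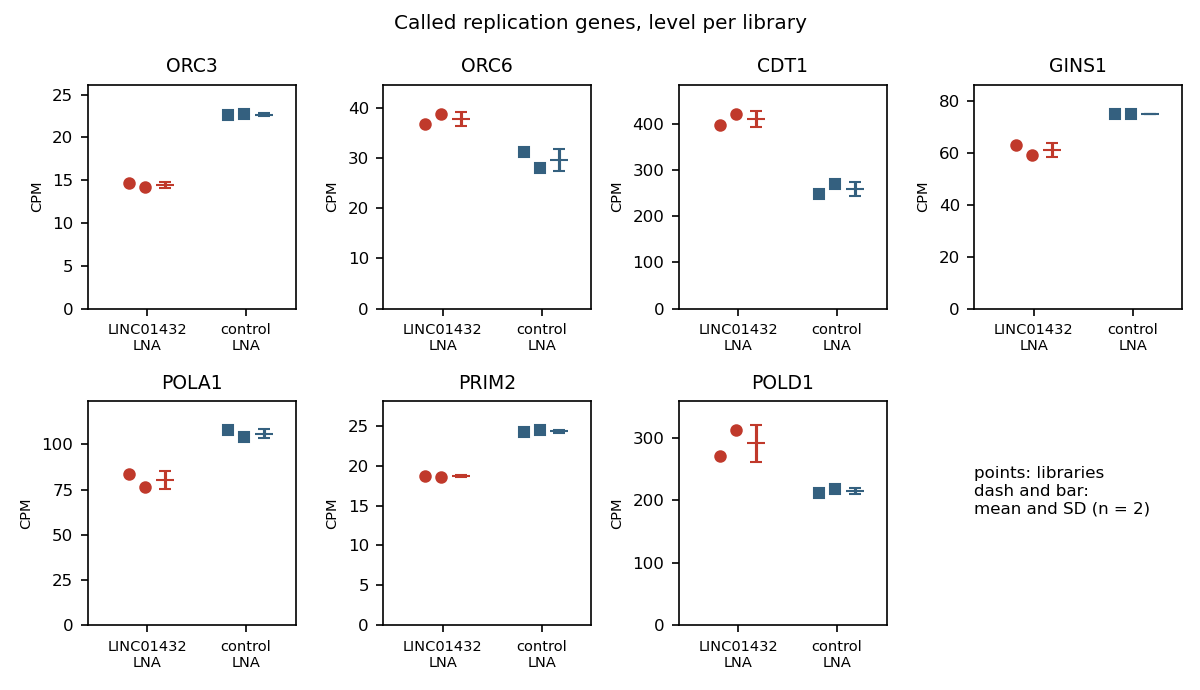
Level in CPM (vertical axes, from 0) of the 7 called replication genes in each library. Points are libraries, and the dash and bar are the mean and SD of 2 libraries. LINC01432 LNA libraries lie left of control LNA libraries in each panel. The groups do not overlap in any panel: ORC6, CDT1 and POLD1 are higher with LINC01432 LNA, and ORC3, GINS1, POLA1 and PRIM2 are lower.

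ORC, the 6-subunit complex that binds origins, held the set's deepest fall beside one of its rises. ORC3 (ENSG00000135336, chr6:87590067-87667453, plus strand, GRCh38), a core subunit, had 14.7 and 14.2 CPM with LINC01432 LNA, against 22.6 and 22.8 CPM with control LNA. The LINC01432 LNA libraries were both low and the pairs were tight. It fell 1.58-fold, to 14.4 ± 0.353 CPM in LINC01432 LNA cells, against 22.7 ± 0.135 CPM in control LNA cells (SD, n = 2 each). Its log2 fold change was -0.66 with a standard error of 0.09 (edgeR adjusted p = 0.00109). ORC3 was called in all 14 alternative fits, with log2 fold changes from -0.70 to -0.56. ORC6 (ENSG00000091651, chr16:46689643-46698394, plus strand), the smallest and most loosely held subunit, moved the other way. Its level was 36.7 and 38.8 CPM with LINC01432 LNA, against 31.1 and 27.98 CPM with control LNA, with no overlap. The log2 fold change of ORC6 was 0.35 with a standard error of 0.09 (edgeR adjusted p = 0.0255). It was not called by DESeq2 (adjusted p = 0.125) or without control library 1 (0.173) or 2 (0.489), where the log2 fold change was 0.41 and 0.27. The count ratio of ORC6 to ORC3 was 2.50 and 2.74 in LINC01432 LNA libraries, against 1.38 and 1.23 in control libraries. This ratio sets the subunit called higher over the subunit called lower, so it restates those calls. For the other 4 subunits both LINC01432 LNA libraries were below both controls, yet none passed. ORC5 came nearest, at 23.9 and 25.2 CPM against 28.95 and 30.1 CPM (log2 fold change -0.27, edgeR adjusted p = 0.0719). ORC1, the subunit that joins ORC in G1 phase in human cells, had 165 and 174 CPM against 180 and 181 CPM, and ORC2 and ORC4 had log2 fold changes of -0.12 and -0.10.

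Promoters of 5 called genes are shown because they set the opposed ORC subunits beside CDT1, GINS1 and POLA1. Of the 45 genes, 39 matched a promoter in the RefSeq table, each 300 bases long, from 250 before to 50 after the RefSeq start. Capitals mark E2F-type matches (TTTCCCGC, TTTCGCGC, TTTGCCGC or TTTGGCGC) and CCAAT, both on either strand. An E2F-type match was present in 19 of the 39 (48.7%), against 3.31% of 35116 promoters in the table, and CCAAT in 23 of 39 (59.0%), against 34.6%. The letters TTTGAA or TTCGAA, of the CHR element of cell cycle genes, were searched in the same way and found in 2 of 39 (5.13%), against 16.4%, and are not marked. A single promoter was taken for each of the 39 genes, whereas the 35116 were not limited to 1 per gene. The shares were not matched for the GC content of the promoters, which ran from 38.3% (PRIM2) to 78.3% (GINS2) in the set. Among the 7 called genes the E2F-type letters were found for CDT1, ORC3, GINS1 and POLA1, 1 of 3 that rose and 3 of 4 that fell. Each is given 5′ to 3′ on its gene's strand, in GRCh38.p14.
ORC3, chr6:87589885-87590184, plus strand: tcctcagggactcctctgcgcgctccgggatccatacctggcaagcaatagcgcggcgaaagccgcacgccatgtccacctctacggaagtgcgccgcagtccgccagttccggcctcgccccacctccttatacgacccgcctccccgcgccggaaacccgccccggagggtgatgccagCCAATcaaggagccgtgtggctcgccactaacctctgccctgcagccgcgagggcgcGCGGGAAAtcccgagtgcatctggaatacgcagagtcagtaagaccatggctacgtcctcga
ORC6, chr16:46689409-46689708, plus strand: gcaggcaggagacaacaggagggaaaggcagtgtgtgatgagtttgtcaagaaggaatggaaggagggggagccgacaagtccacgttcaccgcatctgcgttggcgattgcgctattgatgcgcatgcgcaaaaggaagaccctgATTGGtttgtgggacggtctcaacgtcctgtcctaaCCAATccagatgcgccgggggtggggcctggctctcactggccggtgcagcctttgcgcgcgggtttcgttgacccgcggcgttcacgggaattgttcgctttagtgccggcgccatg
CDT1, chr16:88803539-88803838, plus strand: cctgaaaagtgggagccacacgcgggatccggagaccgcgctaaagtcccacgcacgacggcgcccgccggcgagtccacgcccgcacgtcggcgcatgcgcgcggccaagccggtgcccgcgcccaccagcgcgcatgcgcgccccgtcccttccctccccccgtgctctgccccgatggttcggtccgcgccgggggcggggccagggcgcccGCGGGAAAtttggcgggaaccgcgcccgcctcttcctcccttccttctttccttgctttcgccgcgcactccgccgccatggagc
GINS1, chr20:25407423-25407722, plus strand: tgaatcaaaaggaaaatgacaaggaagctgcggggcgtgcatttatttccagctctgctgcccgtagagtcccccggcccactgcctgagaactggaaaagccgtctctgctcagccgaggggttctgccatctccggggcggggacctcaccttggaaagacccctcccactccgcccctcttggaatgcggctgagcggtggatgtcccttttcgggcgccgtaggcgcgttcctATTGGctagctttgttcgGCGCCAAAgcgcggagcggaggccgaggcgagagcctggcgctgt
POLA1, chrX:24693668-24693967, plus strand: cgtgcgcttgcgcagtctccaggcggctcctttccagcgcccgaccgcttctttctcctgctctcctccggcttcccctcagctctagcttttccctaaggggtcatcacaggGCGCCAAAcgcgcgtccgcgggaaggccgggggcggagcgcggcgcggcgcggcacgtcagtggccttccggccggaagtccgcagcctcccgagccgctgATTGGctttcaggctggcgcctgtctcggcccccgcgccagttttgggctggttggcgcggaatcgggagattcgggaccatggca
In ORC3 the E2F-type match began 12 bases before the start and in CDT1 35 bases before it, whereas ORC6 held 2 CCAAT matches and no E2F-type match of these letters. A match is a description of the letters and does not show that a factor binds there.

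Among the licensing factors CDT1 rose, while CDC6 and the inhibitor GMNN were slightly lower and did not pass. CDT1 (ENSG00000167513, chr16:88803213-88809258, plus strand), which brings MCM2-7 to ORC, had 397 and 422 CPM with LINC01432 LNA, against 249 and 270 CPM with control LNA. Both LINC01432 LNA libraries were high, by more than the spread of either pair. The log2 fold change of CDT1 was 0.66 with a standard error of 0.08, or 1.58-fold (edgeR adjusted p = 0.000545). The exons of CDT1 are 64.9% G and C, the most in the set, and with an offset for GC content its log2 fold change was 0.17 and not called (adjusted p = 0.138). Nor was it called without control library 1 (log2 fold change 0.58, adjusted p = 0.0515). GMNN was at 57.0 and 57.4 CPM against 65.1 and 65.7 CPM, low in both LINC01432 LNA libraries (log2 fold change -0.19, edgeR adjusted p = 0.139). The count ratio of CDT1 to GMNN was 6.97 and 7.35 in LINC01432 LNA libraries, against 3.82 and 4.12 in control libraries. This ratio is not corrected for GC content, and the exons of GMNN are 41.0% G and C. With the GC offset the log2 fold change of GMNN was -0.13 (edgeR adjusted p = 0.308), beside 0.17 for CDT1. CDC6, the ATPase that acts with CDT1, was at 156 and 166 CPM against 177 and 189 CPM (log2 fold change -0.18, edgeR adjusted p = 0.179).

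None of the 6 subunits of the MCM2-7 helicase passed, with log2 fold changes from -0.12 for MCM6 to 0.15 for MCM2. At an unadjusted p under 0.05, or by DESeq2 or limma-voom, the count was also 0. The LINC01432 LNA libraries differed from each other more than the controls did in all 6 genes. MCM5 was at 967 and 1141 CPM with LINC01432 LNA, one library on either side of the controls at 1022 and 1026 CPM. MCM3 did likewise, at 413 and 495 CPM against 466 and 481 CPM. MCM2 was at 554 and 653 CPM, against 542 in each control. In all 6 genes LINC01432 LNA library 2 was above library 1, and the summed level of the 6 was 3869 and 4461 CPM, against 4248 and 4269 CPM. Over the whole set LINC01432 LNA library 2 was above library 1 in 28 of 45 genes. The share of all tested genes was not computed. MCM7, the most abundant of the set per length, was at 1247 and 1426 CPM against 1451 and 1446 CPM. It was not called (log2 fold change -0.12, edgeR adjusted p = 0.489), but with the GC offset its log2 fold change was -0.28 and passed narrowly (adjusted p = 0.0486).

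Of the proteins that activate the helicase, GINS1 fell and the other 5 did not pass. GINS1 (ENSG00000101003, chr20:25407727-25452628, plus strand), a subunit of the 4-protein GINS ring, had 62.7 and 59.1 CPM with LINC01432 LNA, against 74.9 and 74.8 CPM with control LNA. Both LINC01432 LNA libraries lay below the controls. The log2 fold change of GINS1 was -0.30 with a standard error of 0.08, or 1.23-fold lower (edgeR adjusted p = 0.0312). It was lost without control library 1 (edgeR adjusted p = 0.372) or 2 (0.361), with a log2 fold change of -0.31 in each, and kept by DESeq2 (0.0330) and with the GC offset (0.0391). The partners of GINS1 had smaller values. GINS2 was at 60.0 and 61.5 CPM against 58.8 and 60.1 CPM (log2 fold change 0.03), and GINS3 and GINS4 had log2 fold changes of -0.08 and -0.06, all 3 with overlapping groups. CDC45, which completes the active helicase, was at 44.1 and 50.3 CPM against 50.6 and 50.7 CPM (-0.10), and MCM10, which helps to start the fork, had a log2 fold change of -0.07.

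**Figure D2:**
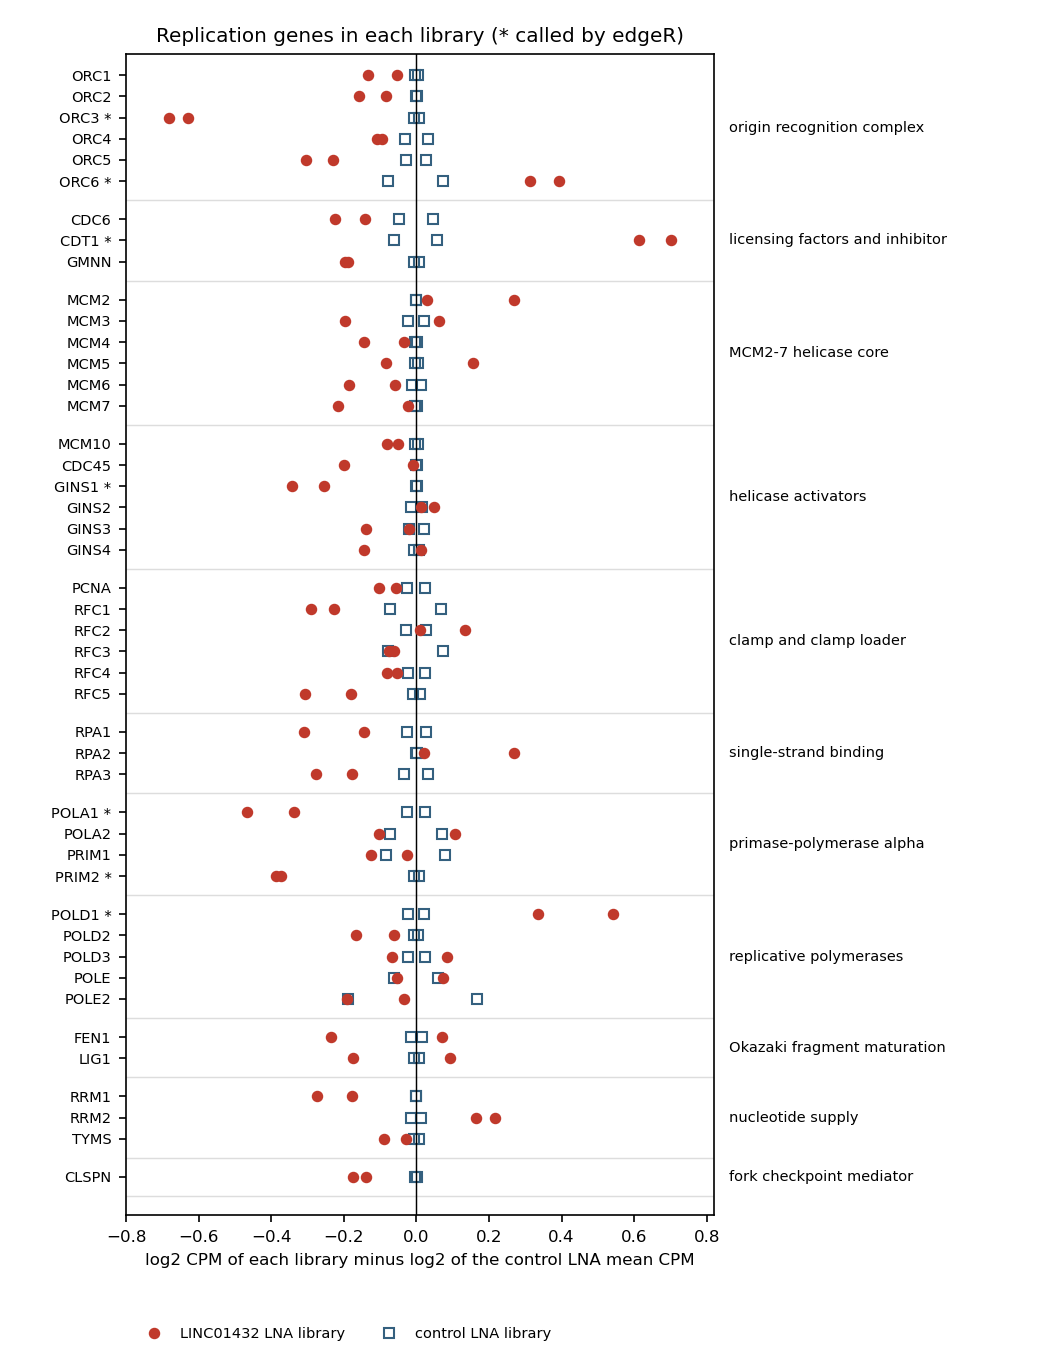
Each row is 1 of the 45 genes, grouped by role. Filled circles are LINC01432 LNA libraries and open squares control LNA libraries, placed by log2 CPM minus the log2 of the control mean; an asterisk marks called genes. ORC3, POLA1, PRIM2 and GINS1 lie to the left and CDT1, POLD1 and ORC6 to the right, most other genes lie a little left of 0, and the MCM2-7 genes show wide spacing of the circles.

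The sliding clamp, its loader and the single-strand binding protein held 0 called genes of 9 in edgeR, DESeq2 and limma-voom, with 4 at an unadjusted p under 0.05 in edgeR. At that unadjusted threshold ORC held 3 of 6, the licensing factors 3 of 3 and the helicase activators 1 of 6. Primase-polymerase alpha held 2 of 4 and the replicative polymerases 1 of 5. PCNA, the clamp that tethers polymerases, was at 177 and 171 CPM against 181 and 187 CPM (log2 fold change -0.08, edgeR adjusted p = 0.584). Of the 5 RFC subunits that load it, RFC1 was at 68.9 and 65.9 CPM against 76.7 and 84.5 CPM (-0.26, adjusted p = 0.0686) and RFC5 at 30.6 and 33.4 CPM against 38.1 and 37.6 CPM (-0.24, adjusted p = 0.0952). These 2 were low in both LINC01432 LNA libraries, and RFC2, RFC3 and RFC4 had log2 fold changes from -0.07 to 0.07. RPA, which coats single-stranded DNA, was uneven: RPA1 and RPA3 had log2 fold changes of -0.22 and -0.23, and RPA2 0.15, with adjusted p of 0.116, 0.134 and 0.353 in edgeR. RPA2 was at 48.5 and 57.6 CPM against 47.7 and 47.8 CPM, so its mean rested on LINC01432 LNA library 2.

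In the polymerase alpha-primase complex, which makes the first RNA and DNA of each strand, the subunits POLA1 and PRIM2 fell and their partners did not pass. POLA1 (ENSG00000101868, chrX:24693919-24996986, plus strand), the catalytic subunit, had 83.9 and 76.6 CPM with LINC01432 LNA, against 108 and 104 CPM with control LNA. Both LINC01432 LNA values were below both controls. The log2 fold change of POLA1 was -0.40 with a standard error of 0.08, or 1.32-fold lower (edgeR adjusted p = 0.00806). Without control library 1 or 2 the call was lost (adjusted p = 0.197 and 0.107), with log2 fold changes of -0.39 and -0.44. PRIM2 (ENSG00000146143, chr6:57314805-57646849, plus strand), the large primase subunit, had 18.8 and 18.6 CPM against 24.2 and 24.5 CPM, with tight pairs. Its log2 fold change was -0.38 with a standard error of 0.09 (edgeR adjusted p = 0.0168). PRIM2 missed the threshold in DESeq2 (adjusted p = 0.0615), under the GC offset (0.0612) or without either control library (0.181 each, log2 fold changes -0.41 and -0.39), and parts of it are duplicated in the genome, so its counts are uncertain. POLA2 and PRIM1, the other subunits, had log2 fold changes of 0.01 and -0.08 with overlapping groups, and other genes cover 35.1% and 21.6% of their exon sequence, so their counts are uncertain. The summed level of the 4 genes was 157 and 153 CPM, against 192 and 183 CPM.

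Of the leading- and lagging-strand polymerases, POLD1 rose. POLD1 (ENSG00000062822, chr19:50384204-50418016, plus strand), the catalytic subunit of polymerase delta, had 270 and 312 CPM with LINC01432 LNA, against 211 and 218 CPM with control LNA. Both LINC01432 LNA libraries were high, library 2 more so. The log2 fold change of POLD1 was 0.44 with a standard error of 0.09, or 1.36-fold (edgeR adjusted p = 0.00793). Its exons are 64.8% G and C, and with the GC offset the value was -0.044 (adjusted p = 0.754), so its direction was not kept. It was not called without control library 1 (adjusted p = 0.277) or 2 (0.165) either, with log2 fold changes of 0.40 and 0.45. POLD2, the second subunit of the same enzyme, went the other way, at 684 and 734 CPM against 770 and 764 CPM. Its log2 fold change of -0.11 was not called (edgeR adjusted p = 0.450), but was -0.29 with the GC offset and passed (adjusted p = 0.0265). POLD3 and POLE, the catalytic subunit of polymerase epsilon, each had a log2 fold change of 0.01, and POLE2 of -0.12, with overlapping groups for all 3.

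The genes of fragment joining, nucleotide supply and fork signalling did not pass in edgeR, DESeq2 or limma-voom, and RRM1 and RRM2 alone had an unadjusted p under 0.05 in edgeR. FEN1, which trims the flaps of Okazaki fragments, was at 297 and 368 CPM against 346 and 354 CPM, and LIG1, which seals them, at 88.7 and 107 CPM against 99.8 and 101 CPM. For both genes the LINC01432 LNA libraries lay on either side of the controls. The subunits of ribonucleotide reductase, which makes deoxynucleotides, leaned apart. RRM2 was at 430 and 446 CPM against 380 and 387 CPM, with a log2 fold change of 0.19 (95% interval 0.02 to 0.36, edgeR adjusted p = 0.153). RRM1 was at 97.6 and 104 CPM against 118 in each control (-0.22, adjusted p = 0.0901). The count ratio of RRM2 to RRM1 was 4.40 and 4.28 in LINC01432 LNA libraries, against 3.22 and 3.28 in control libraries. TYMS, which makes thymidylate, had a log2 fold change of -0.06, and ENOSF1 on the opposite strand covers 39.1% of its exon sequence, so its counts are uncertain. The same holds for MCM2, GINS4 and RRM2, where other genes cover 23.6%, 23.6% and 20.2%. CLSPN, the mediator that passes fork stress to the checkpoint kinase, was at 103 and 105 CPM against 116 in each control (-0.16, adjusted p = 0.229).

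Counts and standard errors give the precision behind these values. Of the called genes, ORC3 rested on 315 to 659 counts per library, PRIM2 on 404 to 707, ORC6 on 688 to 981, GINS1 on 1349 to 2187, POLA1 on 1803 to 3147, POLD1 on 5353 to 7901 and CDT1 on 6648 to 10678. Counts per library ran from 202 to 42353 over the set, and standard errors of the log2 fold changes from 0.08 to 0.13. For the 38 genes that were not called, log2 fold changes ran from -0.27 to 0.19. The lowest and highest bounds of their 95% intervals were -0.45 and 0.36. The intervals, from edgeR's moderated spread, are not adjusted for the number of genes.

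Fold changes in the set followed the GC content of the exons. Across the 45 genes the log2 fold change correlated with GC content at Pearson r = 0.64 and Spearman rho = 0.62, against r = 0.37 and rho = 0.39 across the 17060 tested genes with a GC value. These genes share the same 4 libraries, so this is a description. Of 21 genes under 45% GC, 19 had a negative log2 fold change, 4 were called lower and only ORC6 higher. Of 7 genes over 55% GC, 4 had a positive log2 fold change and 2 (CDT1 and POLD1) were called higher. The shares of all tested genes in these GC classes were not computed, so these counts have no background beside them. The 2 LINC01432 LNA libraries also differed along GC content: all 7 genes over 55% GC were higher in LINC01432 LNA library 2 than in library 1, by a median of 0.21 on the log2 scale, while those under 45% GC had a median of -0.02. Across the 45 genes this library difference correlated with GC content at Pearson r = 0.57, against 0.19 between the control libraries. The GC offset removes each library's trend on GC content, so a weak correlation follows from its construction. With the GC offset, r of the log2 fold change on GC content was 0.09 and rho 0.00. Then ORC6 was called higher and ORC3, MCM7, GINS1, POLA1 and POLD2 lower, or 1 and 5 of 45, where 4.2% of all tested genes rose and 7.28% fell, 11.5% in either direction. The median log2 fold change of the set was then -0.10, against -0.03 over all tested genes. Over all tested genes the calls were 785 higher and 1359 lower with the offset (36.6% higher) and 1401 and 817 without it (63.2% higher). Whether GC content stands for a difference between the libraries or between the cells was not tested.

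**Figure D3:**
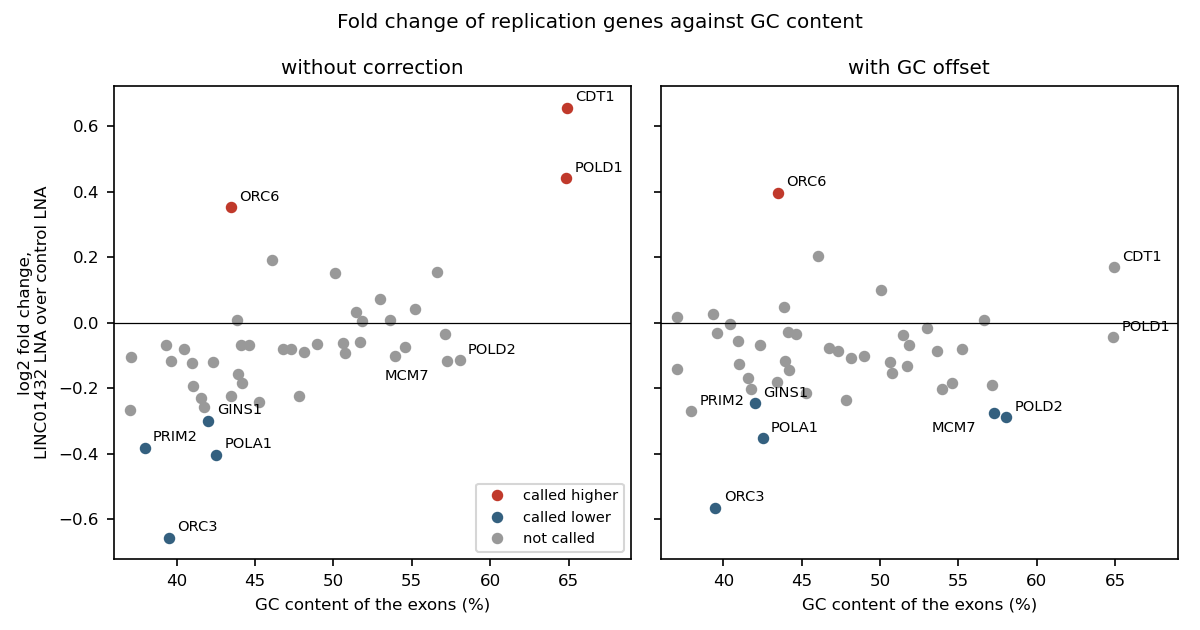
Log2 fold change of the 45 genes, LINC01432 LNA over control LNA (vertical axis), against GC content of their exons in percent (horizontal axis), without correction on the left and with the GC offset on the right. Red points were called higher, blue lower and grey not called. CDT1 and POLD1, near 65% GC, move from 0.66 and 0.44 to 0.17 and -0.044, whereas ORC3, ORC6, GINS1 and POLA1 stay called.

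Levels per length spanned a wide range in the set, and their order hardly changed between the groups. RPKM (CPM per kilobase of annotated exon) were highest for MCM7, at 305 with LINC01432 LNA and 330.3 with control LNA. POLD2 followed at 192 and 208, FEN1 at 134 and 141 and MCM5 at 144 and 140, of which FEN1 and MCM5 do not differ beyond their spread. ORC4 was lowest, at 1.05 and 1.12, or 294 times below MCM7 with control LNA. Within ORC, ORC1 stood at 53.7 and 57.3, far above ORC2 to ORC6, which lay between 1.05 and 8.76 with LINC01432 LNA and between 1.12 and 7.93 with control LNA. CDT1 ranked 7th with LINC01432 LNA and 9th with control LNA, ORC3 43rd and 38th, ORC6 32nd and 37th. For 40 of 45 genes the rank differed by at most 2. Annotated exons include rare and retained-intron forms, so these levels are approximate.

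**Figure D4:**
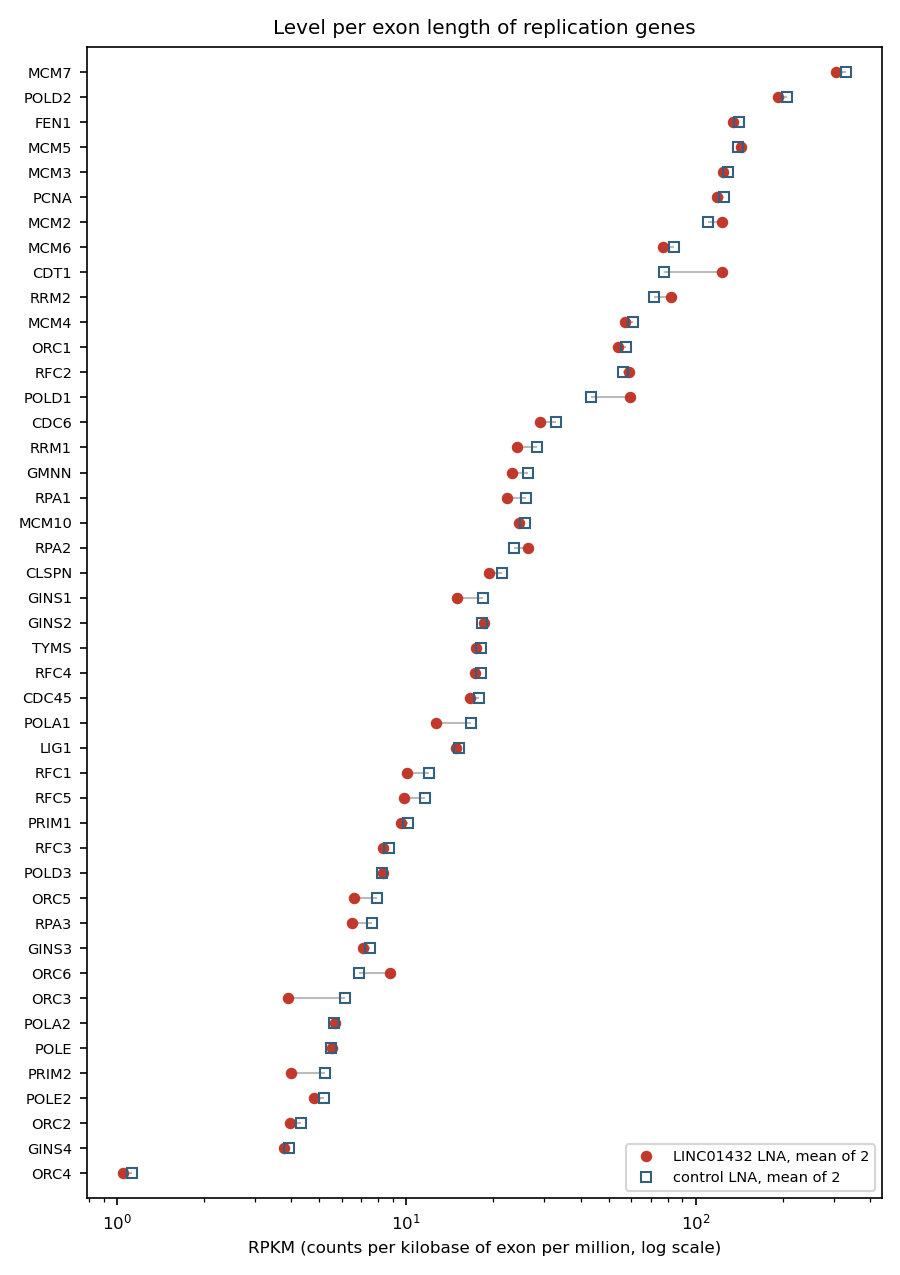
RPKM on a log axis for the 45 genes, ordered by level with control LNA. Filled circles are the mean of 2 LINC01432 LNA libraries and open squares the mean of 2 control LNA libraries, joined by a line. MCM7 is at the top with 305 and 330.3 and ORC4 at the bottom with 1.05 and 1.12; the longest lines are those of the 7 called genes, from CDT1 and ORC3 (1.58-fold each) to GINS1 (1.23-fold).

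Among 104 further genes of the replication pathway, all tested, 8 rose (7.69%, against 7.5% of all tested genes) and 9 fell (8.65%, against 4.37%). Their median log2 fold change was -0.08. CHTF18, part of an alternative clamp loader, rose by 0.68 on the log2 scale (79.1 and 80.3 CPM against 46.7 and 52.9 CPM, edgeR adjusted p = 0.000535). CCNA2, the S phase cyclin, rose 1.41-fold (114 and 119 CPM against 79.6 and 85.2 CPM), and TONSL, which acts at stalled forks, 1.40-fold (128 and 135 CPM against 91.6 and 96.5 CPM). RECQL4, LRWD1, RNASEH2C, UHRF1 and DCK also rose. Of the 8, 6 had exons over 55% GC and of these 0 were called with the GC offset, whereas CCNA2 and DCK were. The falls were led by TOP2B, a DNA topoisomerase, at 145 and 136 CPM against 194 and 199 CPM (1.40-fold lower, edgeR adjusted p = 0.00250). GART, of purine synthesis, fell 1.25-fold (185 CPM in each LINC01432 LNA library against 230 and 232 CPM). E2F8, a repressor among the E2F factors, fell 1.33-fold and RNASEH1, which cuts RNA paired with DNA, 1.30-fold. ATR, the fork checkpoint kinase, fell 1.27-fold, SMARCAL1 1.36-fold, RAD17 1.33-fold and POLH 1.24-fold. All 9 falls were also called with the GC offset, under which XRCC1, ASF1B, E2F1 and TFDP2 passed as lower too. With the offset 2 of the 104 were thus called higher and 13 lower, where 4.2% of all tested genes rose and 7.28% fell. Of 10 E2F and DP genes E2F8 alone was called without the offset. E2F1 was at 112 and 123 CPM against 120 and 112 CPM (log2 fold change 0.02, or -0.34 with the GC offset). Leaving out either control library lowered both counts of these 104 genes, as it did over all tested genes.

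Several replication genes share a start region with a gene on the opposite strand. Within 1000 bases of the start, 15 of the 45 had a tested protein-coding neighbour of this kind, and in 8 of the 15 pairs both fold changes had the same sign. The share of such pairs with the same sign over all genes was not computed. Of the 15 neighbours 1 was called, where 11.9% of all tested genes were. VPS35, a subunit of the retromer sorting complex, starts 125 bases from ORC6 and was the only called neighbour. It was at 175 and 170 CPM with LINC01432 LNA, against 214 and 219 CPM with control LNA, a log2 fold change of -0.33 (edgeR adjusted p = 0.0189), while ORC6 rose. RARS2, a mitochondrial tRNA ligase gene, starts 64 bases from ORC3 and was at 18.0 and 14.0 CPM against 20.2 and 16.9 CPM (-0.22, adjusted p = 0.334). Its groups overlapped, while those of ORC3 did not.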

How the data were processed

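RNA-seq read counts per gene were deposited by the authors without normalization. The submitters' processing notes list bcl2fastq, STAR 2.7.11b, Salmon 1.10.0, Subread and its featureCounts 2.0.8, and the build GRCh38, with no roles. Annotation release and strandedness were not given in the sources used here, so reads of overlapping genes may be split or pooled. The design text names poly(A) selection and the labels' protocols removal of ribosomal RNA. The 97 spike-in and transgene rows were left out (at most 4.20e-05% of any library). Libraries were grouped by title.

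Tests used edgeR 4.0.16 in R 4.3.3: TMM, filterByExpr (minimum count 10, minimum total 15), the quasi-likelihood F test with group as the only term, and Benjamini-Hochberg adjustment over all genes tested. Standard errors are the absolute log2 fold change over the root of F. For a single gene, permuting the 4 libraries exactly gives no p below 0.333. Positions, exonic lengths, overlaps and the GC content of the exons came from GENCODE 29 on GRCh38. The GC offset is each library's lowess trend (span 0.3) of log2 CPM on GC content, and genes without a GC value (1620 of those tested) got none. The alternatives were other scalings and filters, DESeq2 1.42.0, limma-voom (limma 3.58.1), each library left out, the replicate number as a block, offsets for GC content and length, and a threshold of 0.01. The edgeR step was tested on simulated data. It called 53 of 100 genes changed by 0.5 on the log2 scale and 86 of 100 changed by 1, so a gene not called may still differ. The changed genes were drawn from all tested genes above a low count, and no GC difference between libraries was simulated. These shares were therefore not measured for the 45 genes themselves. All 7 called genes are named, those called in an alternative other than a left-out library, and the genes of each role with the smallest p, and called genes of the pathway lists, of which 1 is not reported here. The 45 genes, the pathway lists and the alternatives were chosen with earlier results of these data known. VPS35 and RARS2 were chosen after their values were seen.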

Additional observations from a re-analysis of the deposited data

Results flagged for a closer look

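Spike-in and transgene rows, which no comparison uses, held 4 and 11 counts in LINC01432 LNA libraries 1 and 2, against 3 and 1 in control libraries 1 and 2. These counts are few, the difference rests mostly on LINC01432 LNA library 2, and it was not tested.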

How the results depend on the processing

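Over the 45 genes and 14 alternative fits each, 515 of 630 values kept their direction and side of the threshold, 49 were newly called, 18 lost their call with their direction kept, and 48 changed sign. Among called genes, 3 values changed sign, those of POLD1 with the GC offset (-0.044), with GC offset and replicate block (-0.045) and with GC and length offset (-0.026). The other 45 were of 12 genes not called as reported or in those fits. Log2 fold changes that turned with the GC offset were ORC4 0.019, MCM5 -0.078, GINS2 -0.037, RFC2 -0.014, RFC3 0.029, POLA2 -0.068 and POLE -0.085. Those that turned with GC offset and replicate block were ORC4 0.017, MCM5 -0.082, GINS2 -0.038, RFC2 -0.015, RFC3 0.026, POLA2 -0.070 and POLE -0.084. Those that turned with the GC and length offset were ORC4 0.074, MCM5 -0.035, GINS2 -0.043, RFC2 -0.043, RFC3 0.015, POLA2 -0.041 and POLE -0.016. Those that turned by median of ratios scaling were POLA2 -0.0038, POLD3 -0.00092 and POLE -0.00038. The log2 fold change that turned by library totals was POLA2 -0.0036. Those that turned without a filter on low counts were POLA2 -0.0086, POLD3 -0.0059 and POLE -0.0052. Those that turned in DESeq2 were POLA2 -0.024, POLD3 -0.022 and POLE -0.022. With each library left out, the log2 fold change ran for MCM3 from -0.21 to 0.047, MCM5 from -0.10 to 0.14, GINS2 from -0.0043 to 0.036, RFC2 from -0.0067 to 0.12 and POLA2 from -0.12 to 0.086, and for POLD3 from -0.084 to 0.066, POLE from -0.073 to 0.055, POLE2 from -0.29 to 0.058, FEN1 from -0.25 to 0.053 and LIG1 from -0.19 to 0.075. ORC3 was called in all 14 fits, GINS1 and POLA1 in 12, ORC6 in 11, CDT1 in 10, and POLD1 and PRIM2 in 9. The number of genes of the set called higher, 3 as reported, was 1 with either the GC offset or the GC and length offset, and the number called lower, 4 as reported, was 9 with the replicate block, 13 with GC offset and replicate block and 2 at an adjusted p under 0.01. Leaving out each library gave 0 to 7 higher and 1 to 21 lower, and a median log2 fold change from -0.12 to -0.084.

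Of all tested genes, 1401 were higher and 817 lower. Those higher were 783 by DESeq2, 785 with the GC offset, 901 with the GC and length offset, 2245 with the replicate block and 729 at an adjusted p under 0.01. Those lower were 1359 with the GC offset, 1300 with the GC and length offset, 1617 with the replicate block, 2491 with GC offset and replicate block and 271 at an adjusted p under 0.01. Leaving out a library gave 566 to 2637 higher and 200 to 2591 lower. Of the other pathway genes, 8 were higher as reported: 5 by median of ratios scaling, 3 by DESeq2, 2 with either the GC offset or the GC and length offset, 5 with GC offset and replicate block and 3 at an adjusted p under 0.01. Those lower, 9 as reported, were 16 with the replicate block, 20 with GC offset and replicate block and 1 at an adjusted p under 0.01. Leaving out a library gave 1 to 15 higher and 0 to 32 lower. The cause of these changes was not tested, beyond the fewer libraries of such fits.

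Libraries with the same replicate number deviated from their group means with a correlation of 0.13 across genes. With 2 pairs and no label that ties the numbers to a shared culture, the numbers do not establish pairs, so the block is an alternative only. Where leaving out a library left 1 in its group, that one was assumed to vary like the other pair.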
